A study of Mus musculus with 23 samples.

Results

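Heat shock chaperones and the genes of the unfolded protein response were followed across mouse CD4+ T cells divided by 2 surface proteins, CD25 and CD49f. The gene list held 35 members, and 34 of them were measured, out of 18194 genes on the array. Each gene was read from the probe set that the array annotation assigns to it alone and that had the highest mean over the 23 arrays. Hsp90ab1, a constitutive cytosolic HSP90, had no such probe set in the annotation used here and is not reported. The measured members comprised 7 cytosolic chaperones, 3 mitochondrial chaperones and 24 genes of endoplasmic reticulum (ER) stress. The ER stress genes were 6 sensors and transcription factors, 13 ER chaperones and folding enzymes, 2 components of ER-associated degradation and 3 targets of the integrated stress response.

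Cells answer unfolded protein in separate ways in separate compartments. In the cytosol, the transcription factor HSF1 binds heat shock elements and induces HSP70, its J-protein partners and HSP90. In the ER, the sensors IRE1 (encoded by Ern1), PERK (Eif2ak3) and ATF6 release the transcription factors XBP1, ATF4 and cleaved ATF6, which raise chaperones such as BiP (Hspa5) and, through the integrated stress response, genes of amino acid supply such as Asns. In T cells, activation and growth load both systems with newly made protein.

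The series compared 4 populations of CD4+ T cells, here called gates. CD25 is a chain of the receptor for interleukin-2, carried by most regulatory T cells, and CD49f is integrin alpha 6, a laminin receptor. The CD25-CD49f- and CD25-CD49f+ gates had 7 arrays each, CD25+CD49f- had 5 and CD25+CD49f+ had 4, every array from total RNA of a biological replicate. No gate carried a treatment or an engineered allele in the labels, all mice were labelled female, and the labels used here give no strain, age or organ.

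Transcripts of the gated proteins and of T cells were read before the chaperones. Il2ra, which encodes CD25, averaged 5.42 ± 0.20 (SD, n = 7) in CD25-CD49f- cells and 6.84 ± 0.24 (n = 7) in CD25-CD49f+ cells on the log2 scale, against 9.69 ± 0.16 (n = 5) in CD25+CD49f- and 9.60 ± 0.18 (n = 4) in CD25+CD49f+ cells. Foxp3, the regulatory T cell transcription factor, averaged 4.74 ± 0.32, 8.25 ± 0.22, 9.79 ± 0.08 and 9.85 ± 0.20 in the same order, so the CD25-CD49f- gate alone lay under the level of an absent transcript for Foxp3. Itga6, which encodes CD49f, did not follow the CD49f labels: it averaged 9.79 ± 0.16, 9.36 ± 0.08, 9.64 ± 0.23 and 9.81 ± 0.04 in that order, and was 0.44 lower with CD49f in CD25- cells (log2 difference -0.44 ± 0.08, limma adjusted p = 0.000321). The gates are therefore named by their labels, which name surface proteins. All 5 measured T cell markers, Cd4 and the CD3 chains among them, were above that level in every gate. Of them, 2 were lower with CD25 in CD49f- cells and 1 with CD25 in CD49f+ cells. The level of an absent transcript was taken as 6.5, the highest reading of Xist, or of 3 Y-linked genes, on arrays that lacked it. Although all samples were labelled female, 12 arrays had Xist alone, 10 had Y-linked transcripts alone and 1 (CD25+CD49f- replicate 5) had both, and every gate held arrays with Y-linked transcripts and arrays without. A set of 4 arrays stood apart from their gate, with a median correlation of 0.967 to 0.982 to the others against 0.989 to 0.995 for the other 19. They were CD25-CD49f- replicates 1 and 7, CD25-CD49f+ replicate 1 and CD25+CD49f- replicate 5. The difference between the 3' and 5' probe sets of Actb was taken as a reading of RNA integrity. It was 1.29 to 4.83 on these 4 and 1.22 to 2.09 on the others. Only CD25-CD49f- replicate 1 and CD25+CD49f- replicate 5 lay above the range of the others. CD25-CD49f- replicate 7, at 1.29, and CD25-CD49f+ replicate 1 lay inside it. The whole sort was read in bulk, so fewer cells of a type and less RNA per cell cannot be told apart.

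Promoter sequences are shown for 6 members that hold known response elements of the cytosolic and ER branches. Ern1 and Sdf2l1, whose windows held none of the elements searched, are described below without them. The windows are the 250 bases before the RefSeq start site (GRCm38.p6), written 5' to 3' on the gene's strand. RefSeq promoter entries were found for 28 of the members. The heat shock element pair GAANNTTC, searched on both strands over these 250 bases, was present in 6 of these 28 (Hspd1, Hspe1, Dnaja1, Asns, Hspa1b and Hspa1a). It was present in 6.69% of all 32851 mouse promoters, searched over the same 250 bases. Hspa1a and Hspa1b, the inducible HSP70 genes, lie next to each other on chromosome 17, on the minus strand at chr17:34972157-34972406 and chr17:34959239-34959488. Hspe1, the cochaperonin of mitochondrial HSP60, lies on the plus strand with its window at chr1:55087898-55088147. Capitals mark the heat shock element pair.

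Hspa1a: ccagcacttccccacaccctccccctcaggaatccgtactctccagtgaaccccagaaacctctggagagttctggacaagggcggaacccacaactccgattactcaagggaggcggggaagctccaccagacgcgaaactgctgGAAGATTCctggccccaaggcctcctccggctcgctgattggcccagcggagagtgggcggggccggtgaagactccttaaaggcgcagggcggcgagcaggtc
Hspa1b: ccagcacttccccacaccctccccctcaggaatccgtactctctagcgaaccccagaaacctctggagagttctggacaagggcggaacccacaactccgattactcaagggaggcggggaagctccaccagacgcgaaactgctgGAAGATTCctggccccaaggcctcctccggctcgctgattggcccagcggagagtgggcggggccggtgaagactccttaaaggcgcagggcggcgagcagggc
Hspe1: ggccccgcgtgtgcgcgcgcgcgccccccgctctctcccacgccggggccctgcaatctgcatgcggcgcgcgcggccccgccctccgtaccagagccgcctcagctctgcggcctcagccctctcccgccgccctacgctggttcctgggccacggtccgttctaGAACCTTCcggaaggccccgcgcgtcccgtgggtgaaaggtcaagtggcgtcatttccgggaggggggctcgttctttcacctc

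The windows of Hspa1a and Hspa1b were identical at 247 of 250 bases (98.8%), with the element starting 104 bases before the start site in both, and 84 bases before it in Hspe1. The ER stress response element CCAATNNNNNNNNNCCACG was present in 7 of the 28 members (Hspa5, Calr, Hsp90b1, Canx, Pdia6, Dnajc3 and Creld2) and in 0.113% of all promoters. The windows of Hspa5 (plus strand, chr2:34771840-34772089) and of Pdia6 (plus strand, chr12:17266339-17266588), a protein disulfide isomerase, show it in capitals.

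Hspa5: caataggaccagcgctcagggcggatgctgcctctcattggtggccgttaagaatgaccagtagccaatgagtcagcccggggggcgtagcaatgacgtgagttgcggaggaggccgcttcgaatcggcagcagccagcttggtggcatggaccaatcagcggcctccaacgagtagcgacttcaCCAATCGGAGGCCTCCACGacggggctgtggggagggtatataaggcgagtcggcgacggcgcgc
Pdia6: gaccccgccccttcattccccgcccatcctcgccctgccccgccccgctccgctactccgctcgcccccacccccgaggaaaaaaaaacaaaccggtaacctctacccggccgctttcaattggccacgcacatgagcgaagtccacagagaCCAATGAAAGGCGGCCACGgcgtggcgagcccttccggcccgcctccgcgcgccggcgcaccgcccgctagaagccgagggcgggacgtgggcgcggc

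The C/EBP-ATF element TGATGNAA, a site of ATF4, was present in 3 of the 28 (Chac1, Asns and Herpud1) and in 3.45% of all promoters. It starts 23 bases before the start site of Asns, asparagine synthetase, on the minus strand at chr6:7693210-7693459, and is in capitals. In this window it shares bases with the GAANNTTC match of the same gene.

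Asns: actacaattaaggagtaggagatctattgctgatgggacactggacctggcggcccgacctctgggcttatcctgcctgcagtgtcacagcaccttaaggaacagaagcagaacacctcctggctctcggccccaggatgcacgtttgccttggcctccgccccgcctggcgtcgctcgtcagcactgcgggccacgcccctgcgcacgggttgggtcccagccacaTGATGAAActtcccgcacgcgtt

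These matches describe letters in a window and say nothing of binding in these cells. Several members that moved, Dnajb9 and Sdf2l1 among them, had none of these letters in the window.

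The comparison by CD49f within CD25- cells had calls in one direction alone. In CD25-CD49f+ against CD25-CD49f- cells, 8 of the 34 members were higher and 0 were lower in the limma fit at an adjusted p under 0.05, where 13.4% of all genes were called, 8.01% higher and 5.42% lower. Those 8 were the inducible HSP70 genes Hspa1a and Hspa1b, the ER chaperones Hspa5, Dnajb9, Sdf2l1 and Pdia6, the transcription factor Atf4 and its target Asns. The median log2 difference of the members was 0.19, against -0.02 over all genes, and 26 of the 34 differences were above 0. At an unadjusted p under 0.05 there were 12 members, against 23.3% of all genes. The gates did not overlap for 2 members, Sdf2l1 and Asns, against 5.78% of all genes.

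The comparison by CD25 within CD49f- cells had calls in both directions. In CD25+CD49f- against CD25-CD49f- cells, 9 members were higher and 2 were lower, where 14.0% of all genes were called, 9.34% higher and 4.68% lower. The higher genes were Ern1, Dnajb9, Hspa5, Xbp1, Asns, Pdia6, Atf4 and the mitochondrial pair Hspd1 and Hspe1, and the lower ones were Eif2ak3 and Trib3. The median was 0.23 against -0.01 over all genes, and 29 of the 34 differences were above 0. At an unadjusted p under 0.05 there were 17 members, against 23.2% of all genes. The gates did not overlap for 4 members, Xbp1, Ern1, Asns and Hspa5, against 8.10% of all genes. This comparison shares its CD25-CD49f- arrays with the preceding one.

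Within CD25+ cells, CD49f moved a single member. With CD49f Ern1 was lower and 0 members were higher, where 1.82% of all genes were called, 1.47% lower and 0.352% higher. The median was -0.10 against 0.01 over all genes. The gates did not overlap for 3 members, Ern1, Asns and Hyou1, against 4.67% of all genes. Here 4 members passed an unadjusted p under 0.05, against 7.34% of all genes. In CD25+CD49f+ against CD25-CD49f+ cells, Asns was higher and Ern1 lower, where 5.72% of all genes were called, 2.81% higher and 2.91% lower, with a median of -0.03 against 0.02. At an unadjusted p under 0.05 there were 7 members, against 13.2% of all genes. The interaction, the CD49f difference within CD25+ cells minus that within CD25- cells, was below 0 for Hspa1a, Atf4 and Ern1 and above 0 for 0 members, where 5.31% of all genes were called, 4.33% below 0 and 0.984% above. At an unadjusted p under 0.05 there were 12 members, against 14.0% of all genes. In CD25+CD49f+ against CD25-CD49f+ cells 5 members had gates that did not overlap (Asns, Xbp1, Eif2ak3, Hspe1 and Dnajc3), against 8.22% of all genes. Without the 4 arrays that stood apart, the ER stress genes called numbered 8 in place of 2 in CD25+CD49f+ against CD25-CD49f+ cells, where the calls over all genes went from 1040 to 2361. Those added were Xbp1, which was higher, and Eif2ak3, Dnajc3, Sdf2l1, Manf and Trib3, which were lower. For the interaction the ER stress genes called numbered 5 in place of 2, where the calls over all genes went from 966 to 1710.

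**Figure D1:**
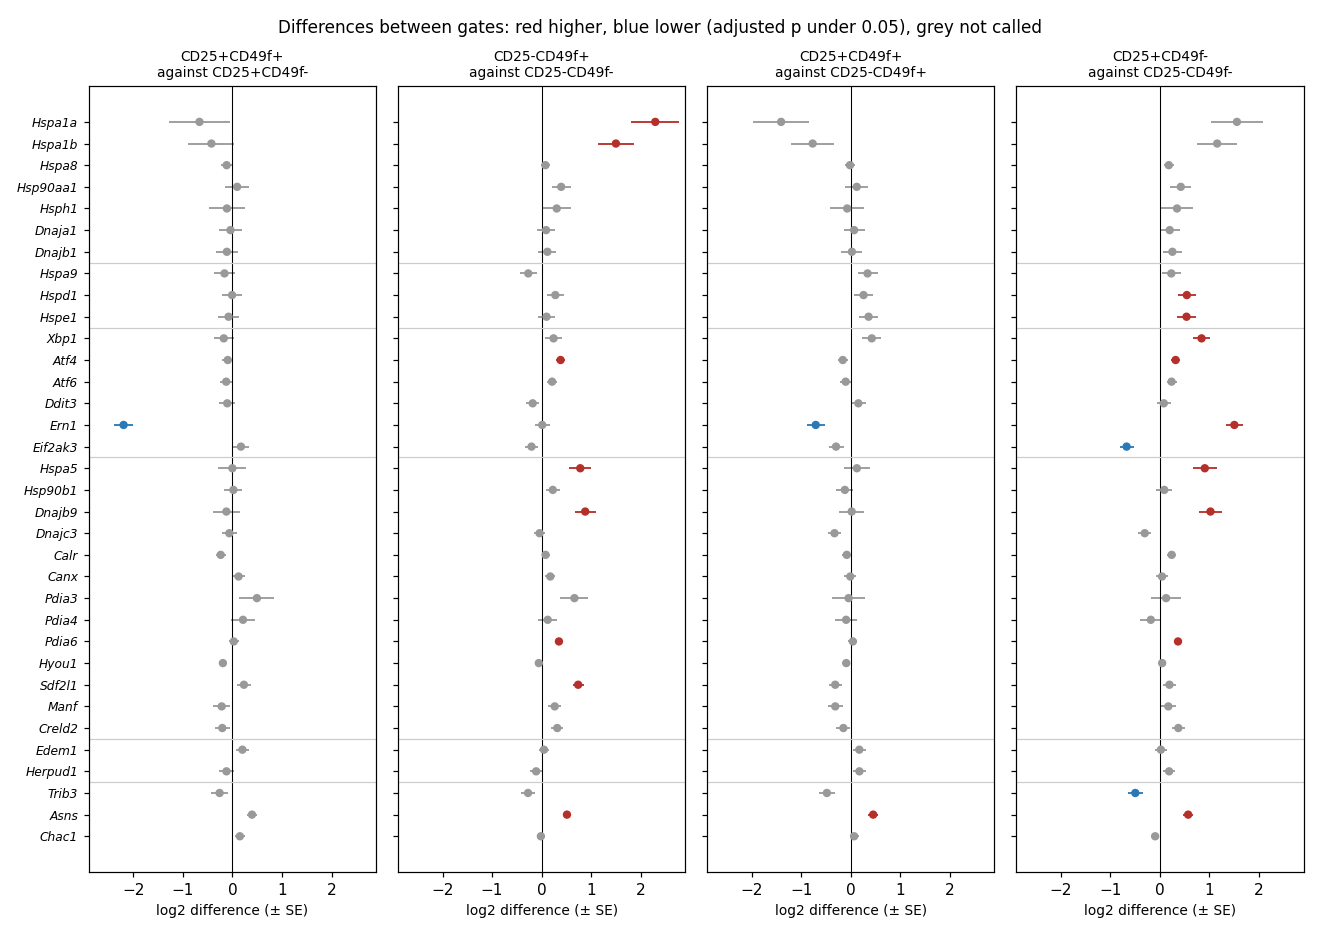
Log2 differences (horizontal axis) of the 34 measured genes (rows, grouped by role) in the 4 comparisons between gates (panels), from limma over 23 arrays; bars are standard errors, red points were called higher, blue points lower and grey points neither. Hspa1a and Hspa1b lie farthest to the right in CD25-CD49f+ against CD25-CD49f- cells, and Ern1 farthest to the left in CD25+CD49f+ against CD25+CD49f- cells.

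Among the cytosolic chaperones, only the stress-inducible HSP70 genes passed the test in any comparison. Hspa1a, measured at log2 levels of 6.44 (lowest), 8.18 (median) and 10.60 (highest) in CD25-CD49f- cells, read 10.12, 10.85 and 11.72 in CD25-CD49f+ cells. The 5 CD25+CD49f- arrays read 9.98, 9.20, 10.89, 9.93 and 11.03, and the 4 CD25+CD49f+ arrays 8.98, 8.89, 10.53 and 9.77. The CD25-CD49f- arrays were split, with replicates 4 and 6 at 10.60 and 10.52 and the other 5 at 8.76 or below, so the 2 CD25- gates overlapped through these 2 arrays. The rise with CD49f in CD25- cells was 2.30 ± 0.48 (SE; 4.91-fold, limma adjusted p = 0.00127).

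Hspa1b, the neighbouring copy, read 9.0, 10.49 and 12.26 (lowest, median, highest) in CD25-CD49f- and 11.72, 12.21 and 12.71 in CD25-CD49f+ cells. In the CD25+CD49f- gate it read 11.76, 11.14, 12.39, 11.77 and 12.66, and in the CD25+CD49f+ gate 11.15, 10.87, 12.29 and 11.77. The same 2 CD25-CD49f- replicates, 4 and 6, were high. Its rise with CD49f in CD25- cells was 1.5 ± 0.37 (2.83-fold, limma adjusted p = 0.00567), and 2 further Hspa1b probe sets rose as well, by 1.88 and 2.10. The genes are near-identical copies, so the assignment of signal to one or the other is uncertain.

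With CD25 in CD49f- cells, Hspa1a differed by 1.56 ± 0.53 (limma adjusted p = 0.0513) and Hspa1b by 1.16 ± 0.41 (adjusted p = 0.0589), neither past the threshold. Both were called once CD25-CD49f- replicate 4 or 6 or CD25+CD49f- replicate 2 was left out, Hspa1a with adjusted p-values of 0.01, 0.0113 and 0.0334 and Hspa1b with 0.0134, 0.0118 and 0.0359. The interaction for Hspa1a was -2.96 ± 0.78 (limma adjusted p = 0.0203): with CD49f it was higher in CD25- cells and differed by -0.67 ± 0.61 in CD25+ cells, which was not called. This interaction was lost without CD25+CD49f+ replicate 1 (adjusted p = 0.0615) or 2 (0.0582). Hspa1b gave -1.93 ± 0.59 (adjusted p = 0.0605), which was called without CD25-CD49f- replicate 4 or 6, CD25+CD49f- replicate 2 or CD25+CD49f+ replicate 3 (0.0175, 0.0157, 0.0410 and 0.0404).

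The spread of the HSP70 genes within a gate was wide. The pooled within-gate SD was 1.02 for Hspa1a and 0.776 for Hspa1b, against a median of 0.186 over all genes. Hsph1, the HSP110 exchange factor, had 0.608. Hspa8, the constitutive HSC70, had 0.17.

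Hspa8 read between 12.32 and 13.08 on the CD25-CD49f- arrays, 12.79 and 12.95 on the CD25-CD49f+ arrays, 12.72 and 13.29 on the CD25+CD49f- arrays and 12.71 and 12.98 on the CD25+CD49f+ arrays. All 4 gates overlapped, and its differences ran from -0.12 to 0.18. Hsp90aa1, the inducible HSP90, read 10.50, 11.91 and 12.33 in CD25-CD49f-, 11.46, 12.20 and 12.44 in CD25-CD49f+, 12.02 to 12.44 in CD25+CD49f- and 12.11 to 12.44 in CD25+CD49f+ cells. Its lowest CD25-CD49f- value was replicate 7, and the difference of 0.40 ± 0.19 with CD49f in CD25- cells did not pass (limma adjusted p = 0.223).

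The remaining cytosolic members were Hsph1 and the HSP70 partners Dnaja1 and Dnajb1. In the comparison by CD49f within CD25- cells they differed by 0.31 ± 0.29, 0.09 ± 0.18 and 0.12 ± 0.18, and 0 of them was called in any comparison. In CD25+CD49f- against CD25-CD49f- cells the 7 cytosolic members were all above 0, from 0.18 to 1.56. There 0 were called and 2 had an unadjusted p under 0.05, against 14.0% and 23.2% of all genes. In CD25+CD49f+ against CD25+CD49f- cells 1 of 7 was above 0. There 0 were called and 0 had an unadjusted p under 0.05, against 1.82% and 7.34% of all genes.

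**Figure D2:**
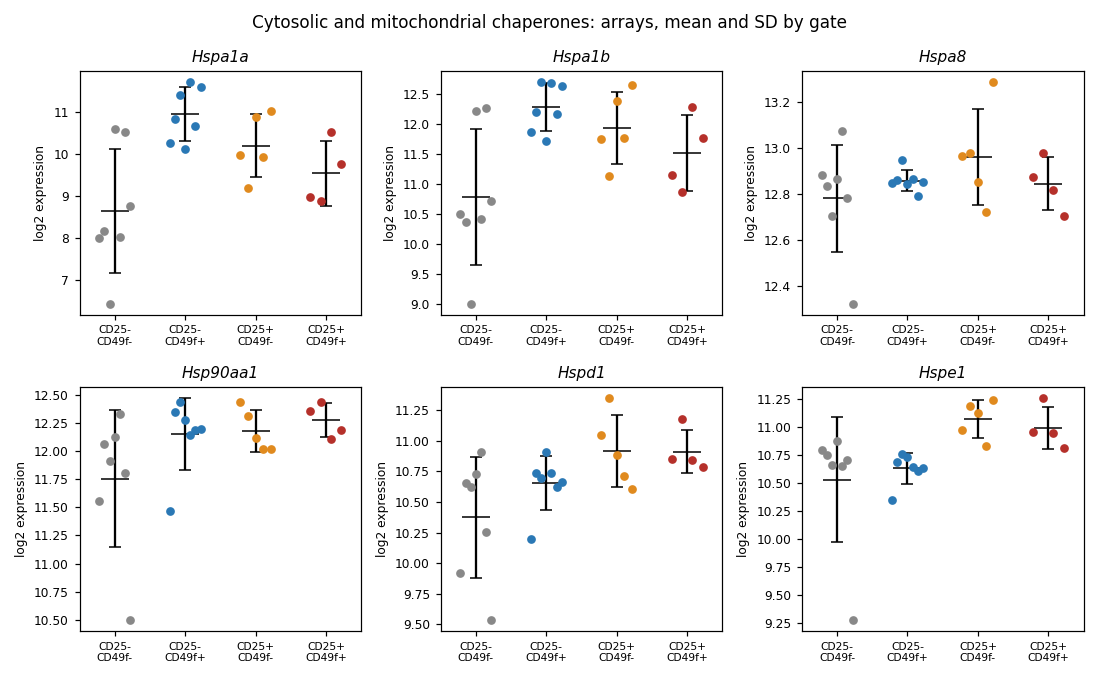
Log2 expression (vertical axis) of 4 cytosolic and 2 mitochondrial chaperones by gate (horizontal axis); points are arrays (7, 7, 5 and 4 from left to right), the horizontal line is the mean and the bar the SD. Hspa1a and Hspa1b show 2 high arrays among the CD25-CD49f- replicates, and Hspe1 shows 1 low array there at 9.28.

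For Dnajb1 and Hspa8 the probe sets of a gene disagreed. The brightest Dnajb1 probe set, used above, differed by 0.12 between the CD25- gates, whereas its other, dimmer probe set was 0.83 ± 0.15 higher in CD25-CD49f+ cells (limma over all probe sets, adjusted p = 0.000453) and 0.57 ± 0.17 higher with CD25 in CD49f- cells (adjusted p = 0.0256). Of the 4 Hspa8 probe sets, the dimmest was 0.65 ± 0.15 (adjusted p = 0.00421) and 0.71 ± 0.17 (adjusted p = 0.00439) higher in these comparisons. The other 3 differed by 0.18 or less. Which of these readings follows the whole transcript was not tested.

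**Figure D3:**
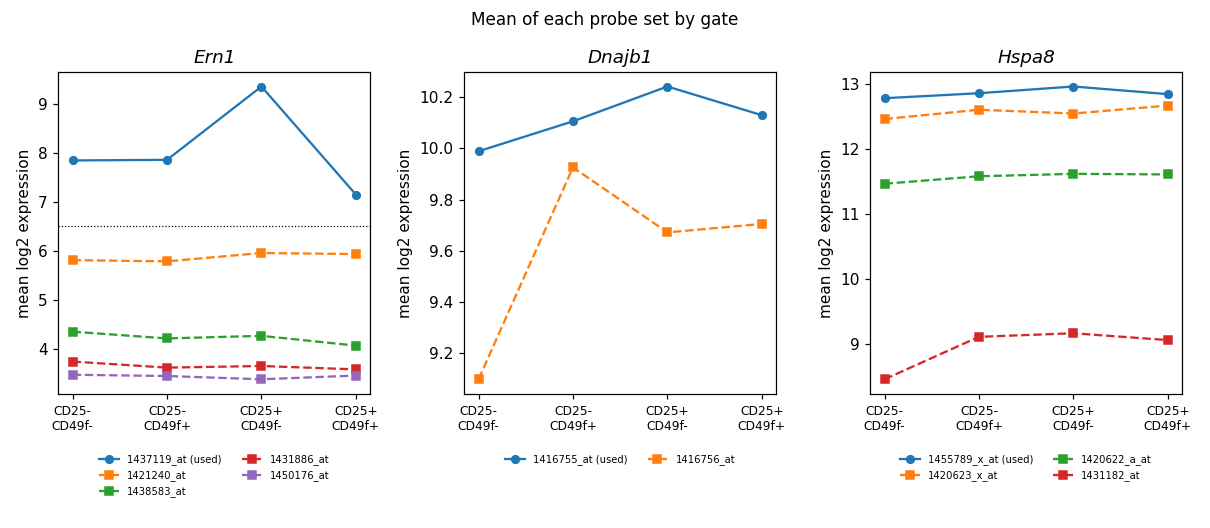
Mean log2 expression (vertical axis) of every probe set assigned to Ern1, Dnajb1 and Hspa8 alone, by gate (horizontal axis); the solid line is the probe set used for the gene, dashed lines are the others, and the dotted line in the Ern1 panel is the level of an absent transcript, 6.5. The 4 unused Ern1 probe sets stay under the dotted line, and the unused probe set of Dnajb1 rises from 9.10 to 9.93 between the CD25- gates.

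The cochaperones around HSP70 and HSP90 were read from a list of 34 genes, 32 measured. With CD49f in CD25- cells 5 rose and 0 fell, where 8.01% of all genes rose and 5.42% fell. Among the 5 were Hspa2, an HSP70 family member, by 1.13 ± 0.13 (limma adjusted p = 2.62e-07) and Hspa4l, of the HSP110 family, by 0.71 ± 0.21 (0.0255). Hspa2 was also 1.09 ± 0.14 higher with CD25 in CD49f- cells, and its interaction was -1.14 ± 0.20 (limma adjusted p = 0.000546). In that comparison 2 of 32 rose, Hspa2 and the J-protein Dnajb4 (0.60 ± 0.16), and 0 fell, where 9.34% of all genes rose and 4.68% fell. With CD49f in CD25+ cells, Bag3, an HSP70 nucleotide exchange factor, was 0.41 ± 0.10 higher (adjusted p = 0.0272). Against CD25-CD49f+ cells the small heat shock protein Hspb1 was 0.46 ± 0.12 higher and Fkbp5, an HSP90 cochaperone, 0.53 lower (log2 difference -0.53 ± 0.09). In the pairwise comparisons the list medians lay between 0.03 and 0.14, against -0.02 to 0.02 over all genes.

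Of the mitochondrial chaperones, the HSP60 pair was higher with CD25 in CD49f- cells, at the edge of the threshold. Hspd1 (HSP60) read 9.54, 10.62 and 10.91 in CD25-CD49f-, 10.19, 10.70 and 10.91 in CD25-CD49f+, then 11.05, 11.35, 10.88, 10.71 and 10.60 in CD25+CD49f- and 10.85, 11.17, 10.84 and 10.78 in CD25+CD49f+ cells. Hspe1 (HSP10) read 9.28, 10.71 and 10.88 in CD25-CD49f-, 10.35, 10.65 and 10.76 in CD25-CD49f+, then 10.97, 11.18, 11.12, 10.82 and 11.24 in CD25+CD49f- and 10.95, 11.26, 10.95 and 10.81 in CD25+CD49f+ cells. Every CD25+CD49f+ value of Hspe1 was above every CD25-CD49f+ value, while the CD49f- gates overlapped.

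With CD25 in CD49f- cells, Hspd1 was 0.54 ± 0.18 higher (1.46-fold, limma adjusted p = 0.0470) and Hspe1 0.54 ± 0.18 higher (1.45-fold, adjusted p = 0.0495). Leaving out 1 array ended the Hspd1 call for 15 of the 23 arrays (adjusted p up to 0.166), all but CD25-CD49f- replicates 2 to 5, CD25-CD49f+ replicate 1, CD25+CD49f- replicates 4 and 5 and CD25+CD49f+ replicate 2. It ended the Hspe1 call for 16 arrays (up to 0.110), all but CD25-CD49f- replicates 1, 2, 4, 6 and 7, CD25-CD49f+ replicate 1 and CD25+CD49f- replicate 4. Without CD25-CD49f- replicate 7 the Hspe1 difference was 0.33, and without the 4 arrays that stood apart it was 0.30 (adjusted p = 0.0150). With RNA quality (the Actb 3'-to-5' signal difference) in the model it was 0.46 and not called (adjusted p = 0.119). The other Hspe1 probe set was 0.39 ± 0.09 higher (limma over all probe sets, adjusted p = 0.00557). Hspa9, mortalin, differed by 0.23 ± 0.19 there and by -0.27 ± 0.17 with CD49f in CD25- cells, neither called. The latter was -0.46 without CD25-CD49f- replicate 7 (adjusted p = 0.00714) and -0.38 without the 4 arrays (0.000481). None of the 6 other mitochondrial chaperones and proteases was called in any comparison by limma, with at most 1 at an unadjusted p under 0.05.

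Of the ER stress sensors and factors, Ern1 had the largest difference of any member within CD25+ cells. Its brightest probe set read 9.42, 9.23, 9.35, 9.64 and 9.10 in CD25+CD49f- cells and 7.10, 7.50, 6.97 and 7.02 in CD25+CD49f+ cells. It read 7.10, 7.93 and 8.32 (lowest, median, highest) in CD25-CD49f- and 7.27, 7.92 and 8.10 in CD25-CD49f+ cells. All 5 CD25+CD49f- arrays were above all other arrays. Ern1 was thus 2.20 lower with CD49f in CD25+ cells (log2 difference -2.20 ± 0.19, 4.59-fold lower, limma adjusted p = 1.13e-08) and 1.5 ± 0.17 higher with CD25 in CD49f- cells (2.84-fold, adjusted p = 1.57e-07). The interaction was -2.21 ± 0.24 (adjusted p = 6.86e-07). In CD25+CD49f+ against CD25-CD49f+ cells it was -0.71 ± 0.18 (adjusted p = 0.0136), a call that ended without CD25+CD49f+ replicate 3 (adjusted p = 0.0647) or 4 (0.0605). The reading rests on 1 probe set, since the other 4 for this gene averaged 3.39 to 5.96 in every gate, under the level of an absent transcript.

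Xbp1, the transcription factor whose mRNA IRE1 splices, was higher with CD25 in CD49f- cells by its brightest probe set. It read 11.11, 11.14, 11.13, 11.07 and 11.20 in CD25+CD49f- cells and 10.98, 11.13, 10.78 and 10.92 in CD25+CD49f+ cells, against 9.15, 10.45 and 10.68 in CD25-CD49f- and 9.94, 10.64 and 10.72 in CD25-CD49f+ cells. Neither CD25+ gate overlapped its CD25- counterpart. The difference was 0.84 ± 0.18 in CD49f- cells (1.79-fold, limma adjusted p = 0.00125) and 0.43 ± 0.19 in CD49f+ cells, which was not called (adjusted p = 0.308) but was without CD25-CD49f- replicate 7 (0.0149). In CD49f- cells the next brightest Xbp1 probe set gave 0.46 ± 0.30 (limma over all probe sets, adjusted p = 0.441). A dimmer one gave 0.59 ± 0.19 (0.0452). The probe sets do not tell spliced from unspliced Xbp1.

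Atf4, which drives the integrated stress response, read 9.64, 9.86 and 10.26 in CD25-CD49f- cells and 10.06, 10.24 and 10.44 in CD25-CD49f+ cells. It read 10.18, 10.13, 10.32, 10.15 and 10.16 in CD25+CD49f- and 10.04, 9.90, 10.25 and 10.19 in CD25+CD49f+ cells. The CD25-CD49f- gate was lowest apart from replicate 7 at 10.26. Atf4 rose by 0.38 ± 0.09 with CD49f in CD25- cells (1.30-fold, limma adjusted p = 0.00212) and by 0.32 ± 0.09 with CD25 in CD49f- cells (adjusted p = 0.0199, and 0.0696 without CD25+CD49f- replicate 3). Its interaction of -0.48 ± 0.14 (adjusted p = 0.0382) was lost when any of 12 arrays was left out: CD25-CD49f- replicates 2, 3 and 6, CD25-CD49f+ replicates 1, 3, 5 and 7, CD25+CD49f- replicates 1, 3 and 4 and CD25+CD49f+ replicates 1 and 2 (adjusted p up to 0.117). The other bright Atf4 probe set differed by 0.31 ± 0.14 with CD49f in CD25- cells (limma over all probe sets, adjusted p = 0.172). With CD25 in CD49f- cells it differed by 0.46 ± 0.15 (0.0474).

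Eif2ak3 (PERK) moved the other way. It was 0.67 lower with CD25 in CD49f- cells (log2 difference -0.67 ± 0.14, limma adjusted p = 0.00119), with CD25+CD49f- arrays between 7.27 and 8.30 and CD25-CD49f- arrays between 8.23 and 9.08. Ddit3 (CHOP), the proapoptotic factor downstream of PERK, read 7.38, 7.65 and 8.5 in CD25-CD49f-, 7.38, 7.53 and 7.95 in CD25-CD49f+, 7.63 to 8.12 in CD25+CD49f- and 7.58 to 7.97 in CD25+CD49f+ cells. Its gates overlapped and its differences, from -0.18 to 0.15, were not called. Atf6 averaged 5.79 to 6.02 in the 4 gates, under the level of an absent transcript. It stays in the counts of ER genes, and was called in none of the 5 comparisons.

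**Figure D4:**
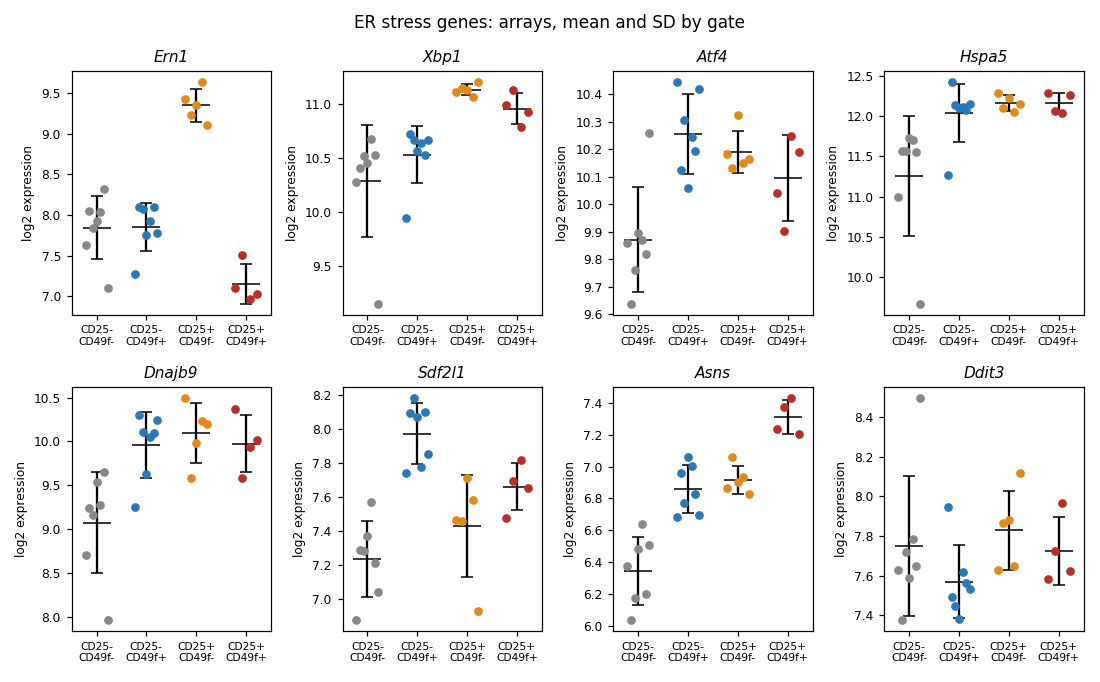
Log2 expression (vertical axis) of 8 ER stress genes by gate (horizontal axis); points are arrays (7, 7, 5 and 4 from left to right), the horizontal line is the mean and the bar the SD. Ern1 is high in the 5 CD25+CD49f- arrays alone, Sdf2l1 is highest in CD25-CD49f+ cells, and Asns is highest in CD25+CD49f+ cells.

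Hspa5, the BiP chaperone that senses and folds ER clients, averaged 11.26 in CD25-CD49f- cells and 12.04 to 12.16 in the other gates. It read 9.67, 11.57 and 11.73 in CD25-CD49f- and 11.27, 12.11 and 12.42 in CD25-CD49f+ cells, then 12.29, 12.10, 12.23, 12.05 and 12.15 in CD25+CD49f- and 12.29, 12.06, 12.04 and 12.26 in CD25+CD49f+ cells. Apart from replicate 1 at 11.27, all CD25-CD49f+ arrays were above all CD25-CD49f- arrays. The rise with CD49f in CD25- cells was 0.78 ± 0.23 (1.72-fold, limma adjusted p = 0.0189) and that with CD25 in CD49f- cells 0.91 ± 0.25 (1.88-fold, adjusted p = 0.0115). Without CD25-CD49f- replicate 7, the lowest array, the former was 0.52, and without all 4 arrays that stood apart they were 0.54 (adjusted p = 5.28e-06) and 0.54 (1.96e-05). When limma was fitted to the compared gates alone, neither rise was called (adjusted p = 0.0746 and 0.0605). The interaction of -0.78 ± 0.36 was not called (adjusted p = 0.318), but without the 4 arrays that stood apart it was -0.54 ± 0.11 (adjusted p = 0.00190).

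Dnajb9, the J-protein partner of BiP, read 7.97, 9.24 and 9.65 in CD25-CD49f- and 9.26, 10.10 and 10.30 in CD25-CD49f+ cells. It read 10.49, 9.58, 9.98, 10.24 and 10.20 in CD25+CD49f- and 10.37, 9.58, 9.93 and 10.02 in CD25+CD49f+ cells. The CD25-CD49f- gate lay lowest and overlapped each of the others. It rose by 0.88 ± 0.21 with CD49f in CD25- cells (1.84-fold, limma adjusted p = 0.00440) and by 1.02 ± 0.23 with CD25 in CD49f- cells (2.03-fold, adjusted p = 0.00236). Its interaction of -1.0 ± 0.34 was not called (adjusted p = 0.102), but was without CD25-CD49f+ replicate 1 (0.0374).

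Sdf2l1, a cofactor of BiP that is an early unfolded protein response target, followed CD49f in CD25- cells. It read 6.88, 7.28 and 7.57 in CD25-CD49f- and 7.74, 8.07 and 8.18 in CD25-CD49f+ cells, with no overlap between them. It read 7.46, 7.46, 7.71, 7.58 and 6.93 in CD25+CD49f- and 7.48, 7.69, 7.82 and 7.66 in CD25+CD49f+ cells. The rise was 0.74 ± 0.11 (1.67-fold, limma adjusted p = 2.60e-05), while with CD25 in CD49f- cells it differed by 0.19 ± 0.12 (adjusted p = 0.394). Its interaction of -0.51 ± 0.18 (adjusted p = 0.132) was called without CD25+CD49f- replicate 5 (0.0150). Pdia6 rose by 0.35 ± 0.08 (adjusted p = 0.00220) and 0.37 ± 0.09 (adjusted p = 0.00314) in the same comparisons.

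The remaining 9 ER chaperones and folding enzymes were not called in any comparison. Pdia3, a disulfide isomerase for glycoproteins, had the widest spread among them, with a pooled within-gate SD of 0.588 and arrays from 8.62 to 11.10. Hyou1, an ER HSP70-like chaperone, had the narrowest at 0.112. Creld2, a secreted ER stress protein, differed by 0.32 ± 0.12 (limma adjusted p = 0.0906) with CD49f in CD25- and by 0.37 ± 0.13 (0.0610) with CD25 in CD49f- cells. Without CD25-CD49f- replicate 5 both were called (0.0148 and 0.00975), as was its interaction (0.0390), and the latter difference was also called without replicate 3 (0.0496) or 4 (0.0403). Manf, a secreted survival factor of stressed cells, differed by 0.27 ± 0.13 (0.233) and 0.17 ± 0.15 (0.569). In CD25+CD49f+ against CD25-CD49f+ cells it differed by -0.31, which was not called. It was called there with array weights (-0.35, adjusted p = 0.00217), with the compared gates alone (0.0363) and without the 4 arrays that stood apart (-0.35, 0.00728). With CD25 in CD49f- cells, Dnajc3 was called without CD25-CD49f- replicate 7 (-0.39, adjusted p = 0.0186) and Calr without replicate 3 (0.0375) or 7 (0.0496). Pdia3 was called with CD49f in CD25- cells without CD25+CD49f- replicate 5 (0.0432). Dimmer probe sets passed for Dnajc3 in CD25+CD49f+ against CD25-CD49f+ cells (-0.55 and -0.57, adjusted p = 0.0492 and 0.0377 over all probe sets) and for Canx with CD25 in CD49f- cells (0.48, 0.0166). The lectin chaperones Calr and Canx, the HSP90 of the ER Hsp90b1, Pdia4 and the BiP partner Dnajc3 differed by -0.33 to 0.24 over the pairwise comparisons. The role as a whole, 13 genes, had a median of 0.27 with CD49f in CD25- cells, against -0.02 over all genes, with 4 higher and 0 lower where 8.01% of all genes were higher. With CD25 in CD49f- cells the median was 0.17, against -0.01, with 3 higher and 0 lower where 9.34% of all genes were higher.

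The ER-associated degradation components, the mannosidase-like lectin Edem1 and the membrane scaffold Herpud1, were called in no comparison. Their differences lay between -0.12 and 0.20, and 0 of them had an unadjusted p under 0.05 in limma. Herpud1, at -0.11 with CD49f in CD25- cells, was called there without the 4 arrays that stood apart (-0.26, adjusted p = 0.00426). Of 38 other genes of ER folding, translocation and degradation, 2 rose and 3 fell with CD49f in CD25- cells, with a median of 0.02 against -0.02 over all genes. Of all genes, 8.01% rose and 5.42% fell there. The prolyl isomerase Fkbp2 (0.48 ± 0.08, limma adjusted p = 0.000100) and the degradation channel protein Derl2 (0.35 ± 0.11) rose, and Wfs1 (-0.37 ± 0.08) and the BiP exchange factor Sil1 (-0.34 ± 0.08) fell the most. With CD25 in CD49f- cells 3 rose and 1 fell: Creb3l2, an ER-bound transcription factor, by 0.57 ± 0.11, Fkbp2 by 0.41 ± 0.09 and the oxidase Ero1a by 0.30 ± 0.10, while the folding sensor Uggt1 was at -0.28 ± 0.07. Of all genes, 9.34% rose and 4.68% fell there. Uggt1 was also lower with CD25 in CD49f+ cells (-0.30 ± 0.08, adjusted p = 0.0202). Within CD25+ cells 0 of the 38 were called, and 5 had an unadjusted p under 0.05, against 1.82% and 7.34% of all genes.

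Among the targets of the integrated stress response, Asns was lowest in CD25-CD49f- and highest in CD25+CD49f+ cells. It read 6.04, 6.38 and 6.64 in CD25-CD49f- and 6.68, 6.83 and 7.06 in CD25-CD49f+ cells, then 6.87, 7.06, 6.90, 6.93 and 6.82 in CD25+CD49f- and 7.23, 7.38, 7.43 and 7.21 in CD25+CD49f+ cells. The CD25-CD49f- gate was below all others without overlap, the CD25+CD49f+ gate above all others without overlap, and the 2 gates between them overlapped. The CD25-CD49f- mean of 6.35 was under the level of an absent transcript, so the folds against it are no more than what the array read. Asns was 0.51 ± 0.09 higher with CD49f in CD25- cells (1.43-fold, limma adjusted p = 0.000110) and 0.57 ± 0.10 higher with CD25 in CD49f- cells (1.49-fold, adjusted p = 8.18e-05). It was 0.45 ± 0.10 higher with CD25 in CD49f+ cells (1.37-fold, adjusted p = 0.00561). With CD49f in CD25+ cells it differed by 0.39 ± 0.11 (adjusted p = 0.0695), called without CD25-CD49f- replicate 2 (0.0471) or 5 (0.0442).

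Trib3, a pseudokinase induced by ATF4 and CHOP, was lower with CD25 in CD49f- cells. It averaged 8.5 ± 0.37 in CD25-CD49f-, 8.22 ± 0.14 in CD25-CD49f+, 8.0 ± 0.22 in CD25+CD49f- and 7.74 ± 0.25 in CD25+CD49f+ cells, with neighbouring gates overlapping. It was 0.50 lower with CD25 in CD49f- cells (log2 difference -0.50 ± 0.15, limma adjusted p = 0.0199), a call lost without CD25+CD49f- replicate 1 (adjusted p = 0.0595), 2 (0.0622) or 3 (0.0525). Its other bright probe set was -0.80 ± 0.11 in this comparison (limma over all probe sets, adjusted p = 8.08e-06) and -0.37 ± 0.10 with CD49f in CD25- cells (0.0151), where the one used gave -0.27 ± 0.13 (0.215, and 0.0217 without CD25-CD49f- replicate 7). In CD25+CD49f+ against CD25-CD49f+ cells it differed by -0.48 ± 0.16 (adjusted p = 0.0750), called without CD25-CD49f- replicate 5 (0.0483) or 7 (0.0173) or CD25+CD49f+ replicate 2 (0.0289). On the arrays with Xist alone the difference with CD25 in CD49f- cells was -0.90 ± 0.17 (adjusted p = 0.00381), and on those with Y-linked transcripts alone -0.20 ± 0.15 (0.606). Chac1 averaged 5.40 to 5.54 in the 4 gates, under the level of an absent transcript.

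Of 32 other measured genes of the integrated stress response, 6 rose and 1 fell with CD49f in CD25- cells, with a median of 0.04 against -0.02 over all genes. Of all genes, 8.01% rose and 5.42% fell there. Ppp1r15a (GADD34), which reverses eIF2alpha phosphorylation, rose by 2.0 ± 0.30 (limma adjusted p = 2.39e-05) and the transcription factor Cebpb by 1.19 ± 0.15 (9.57e-07), and the amino acid transporter Slc7a5 was at -0.29 ± 0.08. With CD25 in CD49f- cells 10 rose and 0 fell, with a median of 0.12, where 9.34% of all genes rose and 4.68% fell. Ppp1r15a rose there by 2.18 ± 0.33 (adjusted p = 2.31e-05) and Cebpb by 1.37 ± 0.16 (3.61e-07). The interactions were -1.98 ± 0.49 for Ppp1r15a (adjusted p = 0.0124) and -1.54 ± 0.23 for Cebpb (6.95e-05).

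Within CD25+ cells 1 of these 32 fell with CD49f, the stress-induced chromatin protein Nupr1 (-0.71 ± 0.17, adjusted p = 0.0272), and 0 rose. Of all genes, 1.47% fell and 0.352% rose there. In CD25+CD49f+ against CD25-CD49f+ cells 4 rose, led by Slc7a5 (0.54 ± 0.09, adjusted p = 0.000166) and Stc2 (0.45 ± 0.11, adjusted p = 0.0110), a secreted glycoprotein hormone, and 0 fell. Of all genes, 2.81% rose and 2.91% fell there.

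**Figure D5:**
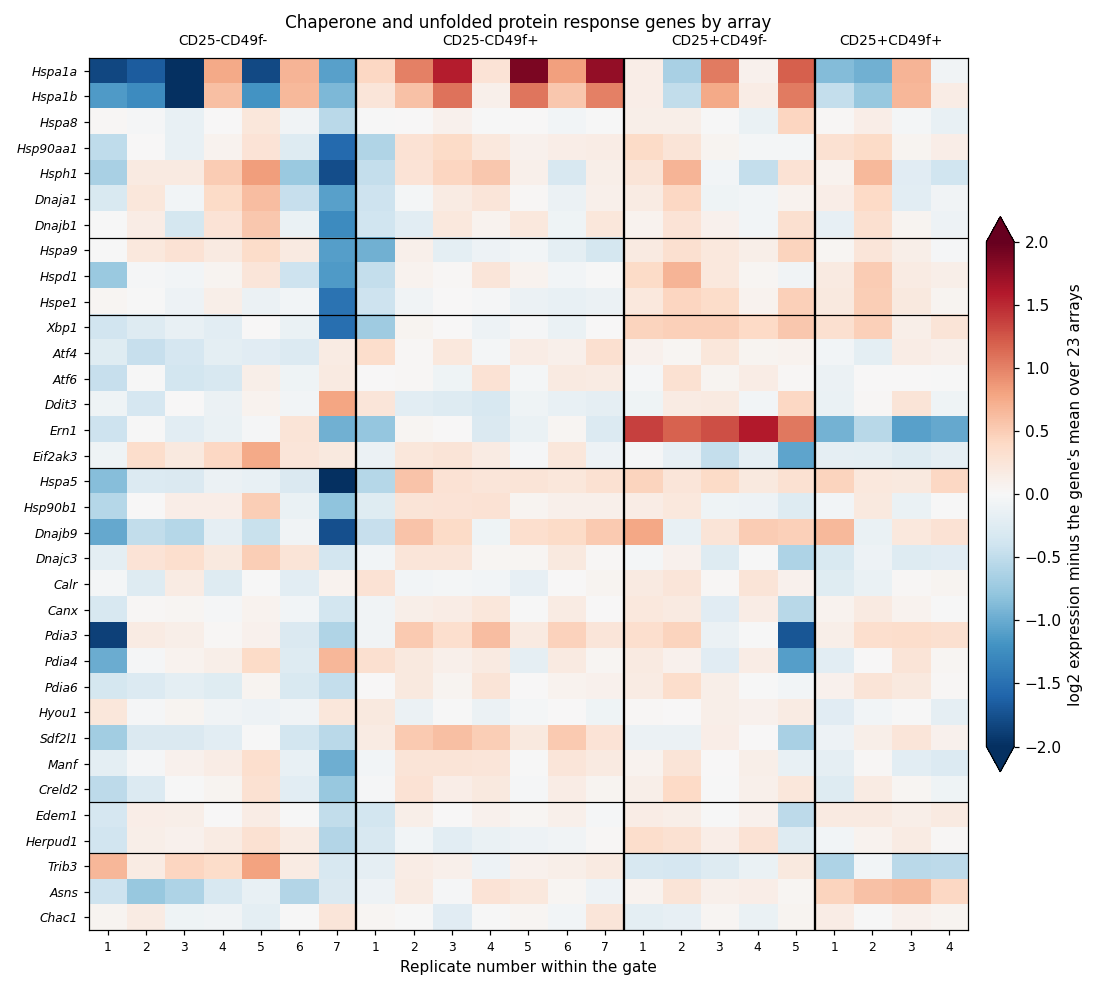
Log2 expression of each measured gene (rows, grouped by role) on each of the 23 arrays (columns, by gate and replicate) minus the gene's mean over all arrays, on a colour scale from -2 (blue) to 2 (red). The row of Ern1 is red in CD25+CD49f- cells, and the column of CD25-CD49f- replicate 7 is blue for most cytosolic, mitochondrial and BiP-related genes.

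Other transcripts moved between the same gates. For the lists that follow, the shares of all genes called in each comparison are those given with the members above. The 11 early genes of dissociation and activation (Fos, Jun, Dusp1, Egr1 and others) were all higher with CD49f in CD25- cells, with a median of 1.40, and 9 of 11 were higher with CD25 in CD49f- cells, with a median of 1.38. Their interaction was below 0 and called for 8 of 11. The log2 of their summed level ranged over 12.25 to 13.61 in CD25-CD49f-, 14.04 to 14.56 in CD25-CD49f+, 14.18 to 14.65 in CD25+CD49f- and 13.99 to 14.53 in CD25+CD49f+ cells. Ier3 and Atf3 were under the level of an absent transcript in all gates, and Atf3 is also one of the integrated stress response genes.

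Of 10 cell cycle genes, 9 were higher with CD49f in CD25- cells, 8 with CD25 in CD49f- cells and 5 with CD49f in CD25+ cells, while 6 were lower with CD25 in CD49f+ cells and 8 had a called interaction below 0. Their summed level ranged over 11.33 to 12.20, 13.26 to 13.75, 12.39 to 12.80 and 12.88 to 13.18 in CD25-CD49f-, CD25-CD49f+, CD25+CD49f- and CD25+CD49f+ cells. Tyms was under the level of an absent transcript in all gates. Of 8 plasmacytoid dendritic cell markers, 7 were lower with CD49f in CD25- cells and 1 with CD49f in CD25+ cells. With CD25 in CD49f- cells 3 were lower and 1 higher, and Ccr9 averaged 7.83 in CD25-CD49f- and 8.67 in CD25+CD49f- cells. The interaction was called above 0 for 3 of the 8 and below 0 for 1. The summed level of these 8 ranged over 10.16 to 11.59, 9.71 to 10.11, 10.25 to 10.74 and 9.71 to 10.27 in the same order. Siglech, Pld4 and Spib were under the level of an absent transcript in every gate but CD25-CD49f-. Plasma cells carry a strong unfolded protein response. Of their 6 measured markers, Sdc1, Tnfrsf17 and Derl3 were under that level in every gate. Jchain (gate means 10.8 to 11.5), Mzb1 (7.4 to 7.9) and Iglv1 (6.6 to 7.4) were above it in every gate. The summed level ranged over 10.32 to 12.35, 10.94 to 12.18, 10.81 to 11.58 and 11.25 to 11.86. Of these plasma cell markers 1 was lower with CD25 in CD49f- cells. Of 9 B cell markers, 3 were lower with CD49f in CD25- cells, 2 with CD25 in CD49f- cells, 2 with CD49f in CD25+ cells and 1 with CD25 in CD49f+ cells. Their summed levels were 11.24 to 12.74, 10.6 to 11.33, 11.54 to 11.83 and 9.97 to 11.04. Cd79a, Pax5 and Fcrla were under the level of an absent transcript in every gate. H2-Aa (gate means 9.1 to 11.1), H2-Ab1 (8.2 to 10.5) and Cd22 (7.6 to 8.3) were above it in every gate. Of 11 myeloid and dendritic cell markers, 3 were lower with CD49f in CD25- cells, 4 with CD25 in CD49f- cells and 1 with CD25 in CD49f+ cells. Their summed levels were 10.63 to 12.06, 11.03 to 11.51, 10.71 to 11.15 and 10.61 to 11.33. Itgam, Cd14, Fcgr3 and Xcr1 were under the level of an absent transcript throughout. Lyz2 (gate means 8.5 to 9.3), Csf1r (7.7 to 8.6) and Cst3 (9.7 to 9.9) were above it throughout. Of 5 NK cell markers, 2 were lower and 1 higher with CD49f in CD25- cells, 2 were lower and 2 higher with CD25 in CD49f- cells, 1 was lower in each comparison with CD25+CD49f+ cells, and summed levels were 9.51 to 10.15, 8.76 to 9.24, 8.96 to 9.42 and 8.52 to 8.88. Ncr1 and Klra8 were under the level of an absent transcript in every gate, and Eomes (gate means 7.1 to 8.4) was above it in every gate. The part of these lists in the chaperone and ER stress differences was not tested.

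The largest differences were also read within the arrays of each kind of sex transcript. On the 12 arrays with Xist alone, Hspa1a was 2.39 ± 0.62 higher with CD49f in CD25- cells (limma adjusted p = 0.0277) and Sdf2l1 0.74 ± 0.14 higher (0.00431), and Ern1 was at -2.02 ± 0.24 with CD49f in CD25+ cells (0.000407). On the 10 arrays with Y-linked transcripts alone these were 2.17 ± 0.55 (adjusted p = 0.0453), 0.73 ± 0.12 (0.00510) and -2.50 ± 0.32 (0.00578). Of the 25 called results of single members, 7 were called in both kinds, 15 in neither and 3 in 1 kind, with 2 to 4 arrays a gate. Called in both were these, Asns in both comparisons with CD25-CD49f- cells, and Ern1 with CD25 in CD49f- cells and for the interaction. Called in neither were Hspa1b with CD49f in CD25- cells, Hspa5, Dnajb9 and Pdia6 with CD49f in CD25- and with CD25 in CD49f- cells, Ern1 and Asns with CD25 in CD49f+ cells, Hspd1, Hspe1, Xbp1 and Atf4 with CD25 in CD49f- cells, and the interactions of Hspa1a and Atf4. The difference of Hspa5 with CD49f in CD25- cells was 0.48 ± 0.22 on arrays with Xist alone and 1.18 ± 0.41 on those with Y-linked transcripts alone. Atf4 with CD49f in CD25- cells and Trib3 were called on the former alone, and Eif2ak3 on the latter alone.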

How the data were processed

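Total RNA of sorted CD4+ T cells was hybridised to 1-colour Affymetrix arrays, 23 in all. The deposited table holds log2 expression of 45101 probe sets, which the authors made with RMA per the submitters' processing notes, which name no RMA version. RMA scales the arrays to a common distribution, so a shift shared by most genes is not seen. No further scaling was applied.

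Of the probe sets, 34958 named 1 gene in the array annotation, 932 several and 9211 none, and 34754 matched a RefSeq gene (GRCm38.p6). The brightest probe set of each gene was kept, since 9012 genes had several, which left 18194 genes. All groups were fitted at once with limma 3.58.1 (lmFit, eBayes) in R 4.3.3, and p-values were adjusted over all genes by the Benjamini-Hochberg method, with a gene called under 0.05. Plots were made in Python 3.11.15 with matplotlib 3.10.9. The fit was tested on simulated data.

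Named with values by array were the up to 3 called chaperones and up to 3 called ER stress genes with the largest difference in each pairwise comparison, every gene called for the interaction, and Hspa5, Hspa1a, Hspa1b, Hspa8, Hsp90aa1, Xbp1, Atf4 and Ddit3 in any case. Of each pathway list, the 2 largest called rises and 2 largest called falls were named. Pdia6, Eif2ak3, Trib3, Creld2, Ero1a and Itga6 were described beside these. The members and lists were chosen with earlier results of these data known. Alternatives were other scalings, probe set choices, tests, thresholds, a replicate block and sets of arrays. The labels call the samples biological replicates, and the number of arrays limits the precision.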

Additional observations from a re-analysis of the deposited data

Results flagged for a closer look

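Among the 14 genes given by array, 56 sets of a gene and a gate were examined for a single array far from the others, and 15 had one. Most of the 15 were in CD25-CD49f- replicate 7 and CD25-CD49f+ replicate 1, both among the arrays that stood apart over all genes. Chance gives about 1 in 20 for independent sets. Sets that share an array are not independent, so the count cannot be set against that rate. CD25-CD49f- replicate 7 read 10.50 for Hsp90aa1 (others 11.55 to 12.33), 9.28 for Hspe1 (others 10.65 to 10.88), 9.15 for Xbp1 (others 10.28 to 10.68) and 9.67 for Hspa5 (others up to 11.73). The same array was high for Atf4, at 10.26 (others 9.64 to 9.90), and for Ddit3, at 8.5 (others 7.38 to 7.78).

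CD25-CD49f+ replicate 1 was low for Hsp90aa1 at 11.46, Hspd1 at 10.19, Hspe1 at 10.35, Xbp1 at 9.94, Ern1 at 7.27 and Hspa5 at 11.27, and high for Ddit3 at 7.95. So Ddit3 was high on both arrays on which Hspa5 and Xbp1 were low. Elsewhere, CD25+CD49f+ replicate 2 was high for Hspd1 at 11.17, and CD25+CD49f- replicate 3 was high for Atf4 at 10.32.

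The CD49f difference in CD25+ cells differed from that in CD25- cells by limma's interaction term for 3 genes: by -2.96 for Hspa1a (adjusted p = 0.0203), by -0.48 for Atf4 (adjusted p = 0.0382) and by -2.21 for Ern1 (adjusted p = 6.86e-07).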

How the results depend on the processing

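Each result was refitted under 18 other settings, 4 of them chosen after seeing the data, and 23 times without 1 array. Of the 25 called results of single members, 0 reversed, and 7 were called in each of these fits: Ern1 in CD25+CD49f+ against CD25+CD49f- cells, in CD25+CD49f- against CD25-CD49f- cells and for the interaction, Hspa1a, Sdf2l1 and Asns in CD25-CD49f+ against CD25-CD49f- cells, and Asns in CD25+CD49f- against CD25-CD49f- cells. Counts of called genes are given below as cytosolic or ER, in the order CD49f in CD25+ cells, CD49f in CD25- cells, CD25 in CD49f+ cells, CD25 in CD49f- cells and interaction, and were 0, 2, 0, 0 and 1 for the cytosolic and 1, 6, 2, 9 and 2 for the ER genes. Without 1 array they ranged over 0 to 0, 2 to 2, 0 to 0, 0 to 2 and 0 to 2 (cytosolic) and 1 to 2, 6 to 8, 1 to 4, 7 to 12 and 1 to 3 (ER), the 12 with Atf6. For CD25 in CD49f- cells the cytosolic count was 2 with array weights, the mean of probe sets, the most variable probe set and the genes above the median level. For CD49f in CD25- cells it was 4 with the most variable probe set and 3 with array weights or the mean of probe sets. For CD25 in CD49f+ cells it was 1 with array weights or the compared groups alone. For the interaction it was 2 with array weights and 0 at an adjusted p under 0.01. The ER counts for CD49f in CD25- cells and for CD25 in CD49f- cells moved under several settings. At a log2 difference of at least 0.5 both lost Atf4 and Pdia6, and the latter also lost Trib3. With the compared groups alone or an adjusted p under 0.01 both lost Hspa5, and the latter also lost Atf4 and Trib3. Array weights added Atf6, Herpud1 and Trib3 to the former and Atf6, Dnajc3 and Calr to the latter. With quantile scaling or cyclic loess the latter lost Atf4 (limma adjusted p = 0.0874 and 0.116) and gained Dnajc3 and Creld2. Cyclic loess also added Creld2 to the former. With the most variable probe set the former lost Atf4 (adjusted p = 0.168) and gained Trib3, and the latter lost Xbp1 (0.429). The ER count for CD49f in CD25+ cells was 2 with array weights, quantile scaling, cyclic loess or the compared groups alone. For CD25 in CD49f+ cells it was 8 with array weights or without the 4 arrays that stood apart, 6 with the compared groups alone, and 1 at an adjusted p under 0.01 or a log2 difference of at least 0.5. For the interaction it was 9 with array weights (Atf6, under the level of an absent transcript, among them), 5 without the 4 arrays, and 1 with robust trended eBayes, quantile scaling, cyclic loess, the mean of probe sets, the most variable probe set, an adjusted p under 0.01 or a log2 difference of at least 0.5. On arrays without Y-linked transcripts the cytosolic counts for CD49f in CD25- cells and the interaction were 1 and 0, and the ER counts for CD25 in CD49f+ cells, CD25 in CD49f- cells and the interaction 0, 3 and 1. On Y-linked arrays without Xist these were 1, 0, 0, 3 and 1, and the ER count for CD49f in CD25- cells was 2. These sets hold fewer arrays, and for the other settings the cause was not tested. Over all genes, the calls in that order numbered 332, 2443, 1040, 2551 and 966, against 762, 3742, 3083, 3659 and 2273 with array weights and 588, 3473, 2361, 3581 and 1710 without the 4 arrays. Replicate numbers were checked for pairing: 15 of 29 pairs of arrays with the same number correlated above 0.1 (median 0.10, from -0.514 to 0.413). Of 166 other pairs 60 did (median 0.02, from -0.535 to 0.696). Replicate 2 had Y-linked transcripts alone in CD25-CD49f- cells and Xist alone in the other gates. In both CD25+ gates, however, replicates 1 and 2 had Xist alone and replicates 3 and 4 Y-linked transcripts alone. Their pairs of the same number correlated at -0.099, 0.382, 0.118 and 0.123. Since the numbers did not match over all gates, they were not taken to pair the arrays. A pairing of the CD25+ gates alone was not fitted. With the replicate block, the cytosolic count for CD25 in CD49f- cells was 2 (Hspa1a and Hspa1b), and the mitochondrial calls were lost there (Hspd1 0.45, adjusted p = 0.105; Hspe1 0.43, adjusted p = 0.107).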
